A study of Mus musculus with 7 samples.

Results

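Collagen genes encode the chains of the most abundant proteins of the extracellular matrix. Members were taken as protein-coding genes whose GENCODE vM21 symbol is Col, a number, a, and a number, with at least 1 estimated read in at least 3 of the 7 libraries. This gave 43 members of 44 genes with such a symbol, among 35498 genes in the files. The gene left out, Col10a1, the type X collagen of hypertrophic cartilage, had 0 reads in each library, which allows up to 3 reads in each. Whole marrow came from female mice at an age of 5 to 6 months, as 3 libraries labelled Aim2 knock-out (KO) and 4 labelled wild type (WT). The Aim2 protein detects DNA in the cytosol, and the title of the study concerns marrow adipocyte formation after its deletion. The labels give neither the strain nor the deleted part of the gene. They also do not state that each library came from its own animal, so the p-values rest on the spread among libraries, which may be technical.

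A collagen molecule is a triple helix of chains in which glycine recurs in a fixed triplet pattern, Gly-X-Y, where X and Y are often proline and hydroxyproline. Fibrillar collagens carry a single long helix and assemble into the fibrils of bone, cartilage, tendon and skin. FACITs are fibril-associated collagens with interrupted helices that sit on the fibril surface, type IV chains build the networks of basement membranes, and type VI chains build beaded filaments around cells. In bone, osteoblasts lay down a matrix made mainly of type I collagen, while marrow stromal, vascular and perivascular cells make collagens of the other classes.

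The coding sequences below show the feature that defines the family, and its length separates the fibrillar class from the others. Each is the first 9 triplets (81 bases, 5′ to 3′, GENCODE vM21 transcripts) of the longest unbroken glycine repeat, and capitals mark the glycine codons (GGN). They come from the fibrillar genes Col1a1, Col2a1 and Col11a2, which return in the results, and from Col14a1, the collagen that passed the test below.

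Col1a1: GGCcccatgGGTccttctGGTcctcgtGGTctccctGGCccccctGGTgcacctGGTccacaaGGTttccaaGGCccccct
Col2a1: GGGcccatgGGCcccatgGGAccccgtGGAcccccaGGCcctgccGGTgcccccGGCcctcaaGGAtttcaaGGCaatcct
Col11a2: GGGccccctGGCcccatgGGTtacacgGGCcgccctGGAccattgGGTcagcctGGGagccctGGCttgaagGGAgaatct
Col14a1: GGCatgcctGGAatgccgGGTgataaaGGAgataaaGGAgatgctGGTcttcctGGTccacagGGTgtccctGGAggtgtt

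In Col1a1-201 the stretch covers codons 168 to 194, in Col2a1-201 codons 201 to 227, in Col11a2-204 codons 487 to 513 and in Col14a1-202 codons 1517 to 1543. The repeat then ran unbroken for 338 triplets in Col1a1 and Col11a2 and 339 in Col2a1, but for only 32 in Col14a1, where runs of at least 5 triplets made up 13.8% of the coding sequence. Over the 11 fibrillar members the longest run held 216 to 344 triplets with a median of 338, and the shortest were those of Col24a1 (216) and Col27a1 (217). The 9 FACIT members had longest runs of 32 to 113 triplets, the 6 type IV members 39 to 66, and the 6 type VI members 37 to 87. No other class reached the fibrillar length, as the longest run elsewhere was 113 triplets. For each gene the transcript with the longest complete coding sequence was used, whatever its reads. Col14a1-202 had 0 reads in each library, and Col11a2-204 had fewer reads than Col11a2-201 in each library.

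**Figure D1:**
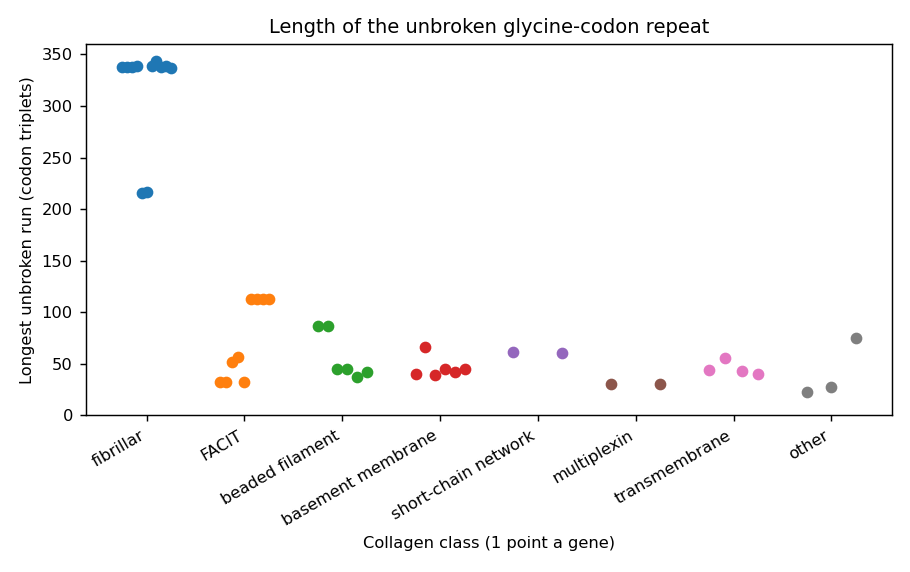
Longest unbroken run of glycine-codon triplets (vertical axis, number of triplets) in the coding sequence of each of the 43 collagen genes, 1 point a gene, grouped by class. The fibrillar genes lie between 216 and 344 triplets, above the genes of all other classes.

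Of the 43 members, 33 had enough reads to be tested, including all 11 fibrillar genes, and 10 did not. The 10 untested members had at most 16 estimated reads in any library. Those were the type IV chains Col4a3, Col4a4, Col4a5 and Col4a6, found mainly in kidney, lung, testis and smooth muscle basement membranes, with at most 3, 5, 10 and 3 reads. The cartilage FACIT genes Col9a1 and Col9a2 had at most 2 and 6 reads, and Col19a1 had at most 3. Col17a1, a transmembrane collagen of skin hemidesmosomes, had at most 8, Col6a6 at most 1, and Col28a1 at most 16 reads. Depth was 20300468 to 21099972 estimated reads per library. Aim2 had 157, 47 and 59 reads in KO libraries 1 to 3 and 533 to 601 in the WT libraries (log2 fold change -2.76, adjusted p = 0.028, by the quasi-likelihood test of edgeR, Benjamini-Hochberg adjusted). Haemoglobin genes took 11.3 to 13.7% of reads in KO and 13.8 to 19.9% in WT, the most in WT library 1.

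Marrow collagen RNA was mostly type I. On the TPM scale, a relative abundance per transcript length, Col1a1 and Col1a2 together made up 70.6 to 80.9% of the summed collagen level in each library. Their WT means were 298 ± 100.1 TPM and 308 ± 107 TPM (SD, n = 4), and Col2a1 followed at 35.0 ± 13.2, Col11a2 at 29.6 ± 9.63, Col6a1 at 13.0 ± 2.72 and Col11a1 at 12.5 ± 5.40 TPM. The spread between libraries is wide, but neighbours in this order share their libraries. Within libraries Col1a1 lay below Col1a2 and Col2a1 above Col11a2 in 7 of 7, while Col6a1 and Col11a1 stood in different orders from library to library. Summed over the fibrillar class, the KO libraries held 468, 471 and 467 TPM and WT libraries 1 to 4 held 578, 816, 989.5 and 462 TPM. The 3 KO libraries were thus close to each other and to WT library 4, while WT libraries 1 to 3 were higher.

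**Figure D2:**
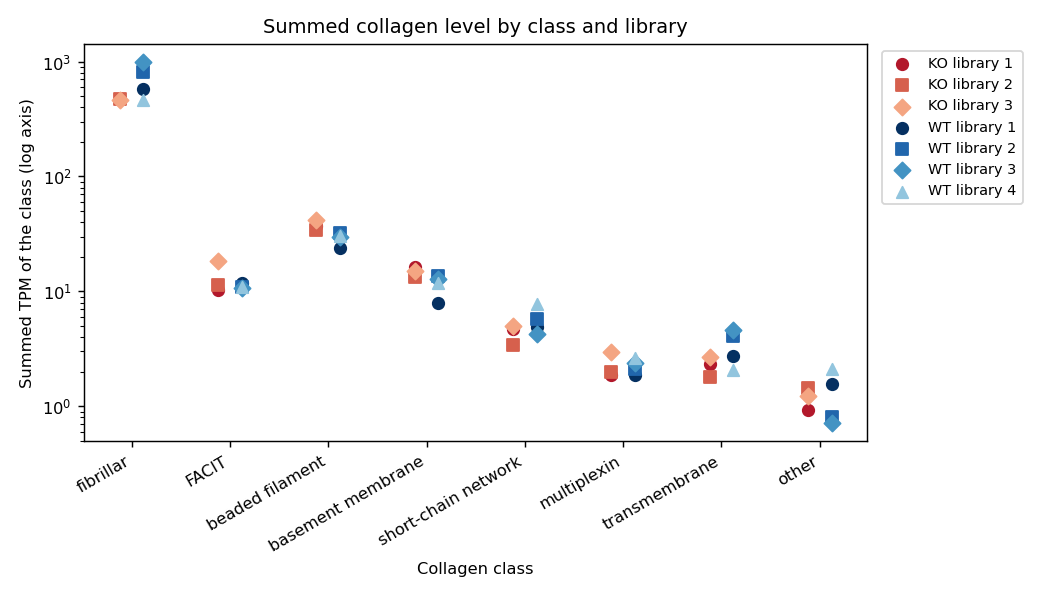
Summed TPM of each collagen class (vertical log axis) in the 3 KO (red) and 4 WT (blue) libraries, 1 point a library. The fibrillar sum is 462 to 471 TPM in the KO libraries and WT library 4, and 578 to 989.5 TPM in the other WT libraries.

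Between KO and WT marrow, 1 of 33 tested collagens passed at an adjusted p under 0.05 and it was higher in KO, where 0.478% of all tested genes were called higher and 0.646% were called in either direction. None was called lower (all tested genes, 0.169%). Before adjustment 16 of 33 had p under 0.05, 6 higher and 10 lower, against 11.5% of all tested genes (6.45% higher, 5.01% lower). The median log2 fold change of the tested collagens lay at -0.004 and that of all genes at -0.01, with 16 collagens above 0 and 17 below 0. By class the values went different ways. Of 11 fibrillar genes 10 had log2 fold changes below 0 (median -0.70), while all 5 tested type VI genes and both tested type IV genes lay above 0 (medians 0.25 and 0.25). The class sizes are small and these splits were not tested.

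**Figure D3:**
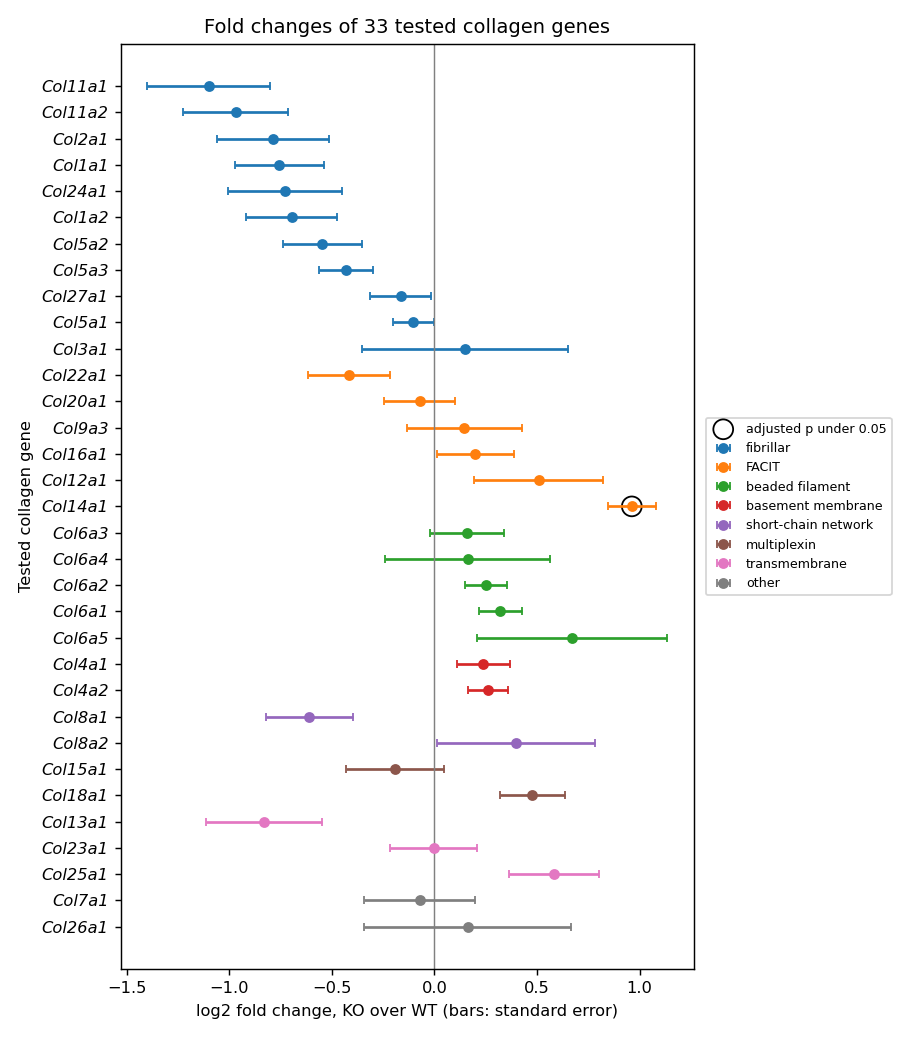
Log2 fold change of KO over WT (horizontal axis, bars are standard errors) for the 33 tested collagen genes, coloured by class. Col14a1, circled, is the gene with an adjusted p under 0.05, and 10 of the 11 fibrillar genes lie to the left of 0.

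Col14a1 was the collagen that rose in KO marrow. It encodes type XIV collagen, a FACIT found on fibrils of dense connective tissue, and lies on chromosome 15 (55307750 to 55520803, GRCm38). KO libraries 1 to 3 held 12.5, 12.4 and 14.8 CPM (reads relative to the TMM-scaled library size) and WT libraries 1 to 4 held 7.61, 6.01, 6.98 and 6.65 CPM. Every KO library was above every WT library, and libraries of a group lay close together. The means were 13.3 ± 1.36 CPM (SD, n = 3) and 6.81 ± 0.67 CPM (SD, n = 4), a 1.95-fold increase (log2 fold change 0.96 ± 0.12, SE, adjusted p = 0.020, by the quasi-likelihood test of edgeR, Benjamini-Hochberg adjusted). It no longer passed without KO library 2 (adjusted p = 0.0661), WT library 2 (0.0528) or WT library 3 (0.0680), with log2 fold changes of 0.87 to 1.02 over the 7 fits with a library left out. Markers of fibroblasts, tendon and periosteum, cells known to make type XIV collagen, went both ways. Of the 8 tested markers 0 passed, 3 had log2 fold changes above 0 and 5 below 0, with a median of -0.24. At an unadjusted p under 0.05 there were 1 above 0 and 2 below, beside 6.45% and 5.01% of all tested genes. Their summed level was 118 to 176 TPM in KO and 62.4 to 101.5 TPM in WT, and it was made up mostly of Ly6a and Pi16. The stem cell antigen Ly6a was at 61.1 ± 17.7 CPM in KO libraries and 29.8 ± 7.84 CPM in WT libraries (log2 fold change 1.03, adjusted p = 0.132, edgeR). Pi16, a marker of a fibroblast subset, was at 77.5 ± 3.21 and 66.8 ± 7.27 CPM. Their part in the Col14a1 result was not tested. In bulk marrow, more cells of a type and more RNA per cell cannot be told apart.

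The other 5 tested FACIT genes did not pass. Col12a1, which encodes type XII collagen of tendon and fascia, had 8.68, 17.9 and 23.0 CPM in the KO libraries and 15.3, 11.1, 8.43 and 11.7 CPM in the WT libraries, so the groups overlapped (log2 fold change 0.51, adjusted p = 0.601, edgeR). Col22a1, a collagen of tissue junctions such as that of muscle and tendon, was at 12.3 to 19.2 CPM in KO libraries and 15.0 to 24.6 CPM in WT libraries (-0.42, adjusted p = 0.482). Col16a1 had a log2 fold change of 0.20, Col9a3, a chain of cartilage type IX collagen, 0.15, and Col20a1 -0.07. Of these, Col16a1 and Col20a1 took the opposite sign on the TPM scale or with an offset for transcript length.

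The type I chain genes, the main collagen product of osteoblasts, separated WT libraries 1 to 3 from the rest. Col1a1 (chromosome 11, 94936224 to 94953042) had 1073, 1188 and 1057 CPM in KO libraries 1 to 3 and 1741, 2074, 2442 and 1215 CPM in WT libraries 1 to 4. WT libraries 1 to 3 were well above the KO libraries, and WT library 4 lay just above the highest of them. The log2 fold change was -0.76 ± 0.22 (SE) and did not pass (adjusted p = 0.218, quasi-likelihood test of edgeR). Col1a2 (chromosome 6, 4504814 to 4541544) had 1083, 1150 and 1008 CPM in KO libraries and 1657, 1949, 2287 and 1103 CPM in WT, with WT library 4 among the KO libraries (log2 fold change -0.70 ± 0.22, SE, adjusted p = 0.280, edgeR). The ratio of Col1a1 to Col1a2 on the TPM scale was 0.893 to 0.993 over the 7 libraries, so the chains of the same molecule moved together from library to library.

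The type XI chain genes, whose products nucleate thin fibrils and set their diameter, had the largest negative values among the collagens. Col11a1 (chromosome 3, 114030540 to 114220718) had 34.0, 35.7 and 29.9 CPM in KO libraries and 63.3, 81.1, 103 and 37.1 CPM in WT. On CPM no WT library fell to the KO range, though WT library 4 was near it. On the TPM scale WT library 4, at 6.25, lay within the KO range of 5.82 to 6.58. The Col11a1 log2 fold change was -1.10 ± 0.30 (SE, adjusted p = 0.196, edgeR). Col11a2 (chromosome 17, 34039437 to 34066685) had 64.0, 73.9 and 61.6 CPM in KO libraries and 122.6, 154, 171 and 73.7 CPM in WT. WT library 4 was inside the KO range, and the Col11a2 log2 fold change was -0.97 ± 0.26 (SE, adjusted p = 0.183, edgeR).

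For these fibrillar genes the outcome rested on WT library 4 and on the method. Without WT library 4, Col11a1 (-1.31, adjusted p = 0.0408) and Col11a2 (-1.17, adjusted p = 0.0273) passed edgeR's test as lower, beside 0.0495% of all tested genes, while Col1a1 (adjusted p = 0.0694) and Col1a2 (0.0754) did not. DESeq2 on all 7 libraries called 4 collagens, where it called 2.84% of all tested genes. Beside Col14a1 it called Col1a1 (adjusted p = 0.00619), Col1a2 (0.0230) and Col11a2 (0.00247) lower, beside 1.03% of all tested genes. With limma voom and sample weights 0 of these genes passed as lower, beside 0.857% of all tested genes, and Col14a1 alone of the collagens passed, beside 2.14% in either direction. Leaving out libraries other than WT library 4 passed 0 of them, and the adjusted p of Col1a1 over all 7 fits with a library left out ran from 0.0694 to 0.485.

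The 250 bases before the RefSeq start of both type XI chain genes follow, since these genes lie on different chromosomes and had nearly the same library profile. They are from RefSeq on GRCm38.p6 and are written 5′ to 3′ along the gene's strand, which is the plus strand for both. Capitals mark CCAAT (read as ATTGG where it lies on the other strand) and TATAAA.

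Col11a1 chr3:114030290-114030539: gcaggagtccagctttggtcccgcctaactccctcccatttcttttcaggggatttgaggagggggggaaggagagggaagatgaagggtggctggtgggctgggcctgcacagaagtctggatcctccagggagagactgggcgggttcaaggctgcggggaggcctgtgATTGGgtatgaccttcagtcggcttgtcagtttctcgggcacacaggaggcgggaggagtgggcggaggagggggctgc
Col11a2 chr17:34038888-34039137: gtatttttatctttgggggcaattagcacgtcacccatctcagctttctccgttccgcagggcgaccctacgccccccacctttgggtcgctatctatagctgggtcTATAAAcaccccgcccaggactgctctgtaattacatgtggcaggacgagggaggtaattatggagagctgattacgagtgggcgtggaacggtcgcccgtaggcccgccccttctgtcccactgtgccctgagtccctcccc

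The Col11a1 window ends next to the GENCODE start of the gene at 114030540. The Col11a2 window ends at 34039137, upstream of the GENCODE start at 34039437, so the windows are not placed alike on that annotation. The Col11a1 window held 1 CCAAT and 0 TATAAA, while the Col11a2 window held 0 CCAAT and 1 TATAAA. Both held 2 copies of GGGCGG, the core of the GC box, and 0 of TGTGGT, the core letters bound by Runx factors, counting both strands. RefSeq windows were found for 34 of 43 members, 37 windows in all. Among these, 35.1% held CCAAT, 10.8% TATAAA, 59.5% GGGCGG and 8.11% TGTGGT, while the shares over 32851 windows of all genes were 33.8, 12.4, 32.7 and 14.0%. A match describes letters in these windows and is not a binding site.

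Col2a1, the type II collagen gene best known from cartilage, had the third highest mean WT collagen level. Most of the non-collagen chondrocyte markers listed here had few reads. It lies on chromosome 15 (97975602 to 98004695) and had 94.2, 116.9 and 93.8 CPM in KO libraries and 166, 201, 238 and 96.0 CPM in WT libraries (log2 fold change -0.79 ± 0.27, SE, adjusted p = 0.321, edgeR). WT library 4 was within the KO range, as for Col1a2 and Col11a2. The ratio of Col1a1 to Col2a1 was 8.21 to 9.77 on the TPM scale over the 7 libraries. Of 11 chondrocyte markers 2 had enough reads to be tested and 0 passed, and the summed level was 4.14 to 8.34 TPM in KO and 3.51 to 5.96 TPM in WT. The cartilage proteoglycan gene Acan had at most 7 reads in a library, the transcription factor gene Sox9 at most 11, Matn1 at most 7 and Snorc was listed at 0. The tested markers were Comp, also made by tendon, at 9.05 ± 3.32 CPM in KO libraries and 7.36 ± 1.35 CPM in WT, and Chad, at 0.60 ± 0.48 and 1.06 ± 0.51 CPM. The transcripts of Col1a1, Col2a1 and Col11a2 shared 0 stretches of 31 bases with those of other genes.

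Both protein-coding forms of Col2a1 were detected. They differ by an exon of 204 bases (98000403 to 98000606 on chromosome 15) that encodes the cysteine-rich propeptide domain of the long form, present in Col2a1-201 and absent from Col2a1-202. The form with the exon took 55.9, 37.5 and 47.0% of the Col2a1 level in KO libraries and 29.2, 33.6, 29.3 and 38.0% in WT libraries. KO library 2 and WT library 4 nearly coincide, so the groups overlap. This split was looked at after the gene's values were seen and was not tested, and reads outside the exon are divided between the forms by the Salmon model.

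The remaining fibrillar genes varied. Col5a2, a chain of the type V collagen that initiates type I fibrils, had 44.2, 48.0 and 53.4 CPM in KO libraries and 64.7, 79.9, 90.2 and 48.5 CPM in WT libraries (log2 fold change -0.55, adjusted p = 0.342, edgeR). Its partner Col5a1 lay at 65.2 to 72.6 CPM in KO libraries and 64.6 to 84.6 CPM in WT libraries (-0.10, adjusted p = 0.763), so the ratio of Col5a1 to Col5a2 on the TPM scale ran from 0.585 in WT library 3 to 1.17 in KO library 2. Col5a3, the third type V chain, had 10.3, 9.71 and 12.2 CPM in KO libraries and 15.0, 13.0, 12.9 and 17.0 CPM in WT. On CPM its groups did not overlap and WT library 4 was the highest (-0.43, adjusted p = 0.253, edgeR). On the TPM scale its groups overlapped, with KO library 3 at 2.14 and WT libraries 1 to 3 at 2.01 to 2.12. Col24a1, a collagen of developing bone, was at 1.95 ± 0.06 CPM in KO libraries and 3.23 ± 1.08 CPM in WT libraries (-0.73, adjusted p = 0.372, but -0.43 with an offset for transcript length), and Col27a1, of cartilage, at 4.90 ± 0.56 and 5.50 ± 0.71 CPM (-0.16, adjusted p = 0.737).

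Several collagens shared a library ranking. In Col1a1, WT library 3 was highest, then WT library 2, then WT library 1, which stood above WT library 4 and the KO libraries. The same ranking held for 7 of 33 tested collagens, namely Col1a1, Col1a2, Col2a1, Col5a2, Col11a1, Col11a2 and Col13a1, which is 21.2%, and for 73 of 14238 tested genes, which is 0.513%. Col13a1, a transmembrane collagen of cell-matrix junctions, was at 3.88 ± 0.70 CPM in KO libraries and 6.91 ± 2.24 CPM in WT libraries (log2 fold change -0.83, adjusted p = 0.315, edgeR). The ranking was chosen after the values of Col1a1 were seen and it is a description of these 7 libraries. Col1a1 is thus among the 7 collagens, and in the 21.2%, by choice. The ranking itself places WT libraries 1 to 3 above the KO libraries.

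Osteoblasts, the main source of type I collagen in bone, were followed by 13 markers. Bglap, the osteocalcin gene of mature osteoblasts, had 49.3, 69.2 and 51.4 CPM in KO libraries and 155, 150.0, 209 and 65.9 CPM in WT libraries (log2 fold change -1.35, adjusted p = 0.160, edgeR). It too was high in WT libraries 1 to 3 and low in WT library 4, which lay within the KO range. Bglap2 had a value of -1.15 on the log2 scale (adjusted p = 0.248). Of 13 osteoblast markers 0 passed and 4 had an unadjusted p under 0.05 (1 higher, 3 lower). Among all tested genes 0.646% passed and 11.5% had an unadjusted p under 0.05 (6.45% higher, 5.01% lower). Log2 fold changes lay above 0 for 3 markers and below 0 for 10, with a median of -0.26. The sum was 779 to 878 TPM in KO and 704 to 1678 TPM in WT. The markers of highest mean CPM, a scale not divided by length, were Spp1 and the bone sialoprotein gene Ibsp. These were at 321 ± 43.1 and 183 ± 16.2 CPM in KO libraries and 211 ± 96.5 and 199 ± 25.0 CPM in WT. Not every osteoblast gene thus had the profile of Bglap. The part of osteoblast number in the collagen values was not tested.

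**Figure D4:**
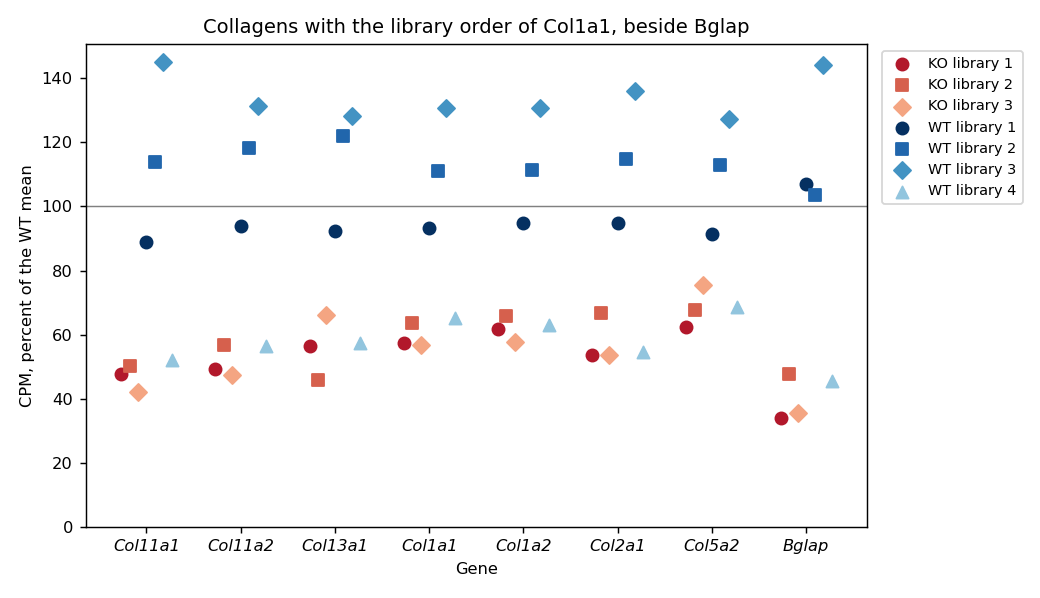
CPM as percent of the WT mean (vertical axis) in each of the 7 libraries for the 7 collagens with the library ranking of Col1a1, with Bglap beside them; KO red, WT blue. WT libraries 1 to 3 lie above the KO libraries for each gene, which the ranking requires of the 7 collagens. WT library 4 lies within the KO libraries or slightly above.

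Col3a1, the type III collagen gene of soft tissue and vessels, varied within each group more than between them. It had 15.3, 30.8 and 46.2 CPM in the KO libraries and 42.4, 28.5, 8.77 and 31.5 CPM in the WT libraries, a 5.27-fold range. KO library 1 and WT library 3 were lowest. The log2 fold change was 0.15 ± 0.50 (SE, adjusted p = 0.950, edgeR), and it became -0.27 without KO library 3 and -0.15 without WT library 3. The small proteoglycan gene Fmod, which is expressed in tendon, was lowest in the same libraries. It had 18, 107 and 177 reads in KO and 142, 126, 15 and 134 reads in WT. Fmod is 1 of 10 listed fibroblast, tendon and periosteum markers and was named after its values were seen. The median of that list, as log2(CPM + 0.5) minus the WT mean, was -0.28, -0.30 and 0.26 in KO libraries 1 to 3. In WT libraries 1 to 4 it was 0.037, -0.076, -0.0021 and 0.20, so the list was not lowest in WT library 3. Skeletal muscle markers ran from 87.4 to 6614 TPM in KO and from 1004 to 2171 TPM in WT, with 0 of 15 tested passing, and Acta1 had 9.72, 203 and 1742 CPM in KO libraries and 366 to 752 CPM in WT. Atp2a1, the calcium pump of fast muscle, had 10.5, 149 and 1179 CPM in KO libraries and 163 to 397 CPM in WT. KO library 1 was low and KO library 3 high for both, and the part of muscle or tendon tissue in the Col3a1 and Col12a1 values was not tested.

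**Figure D5:**
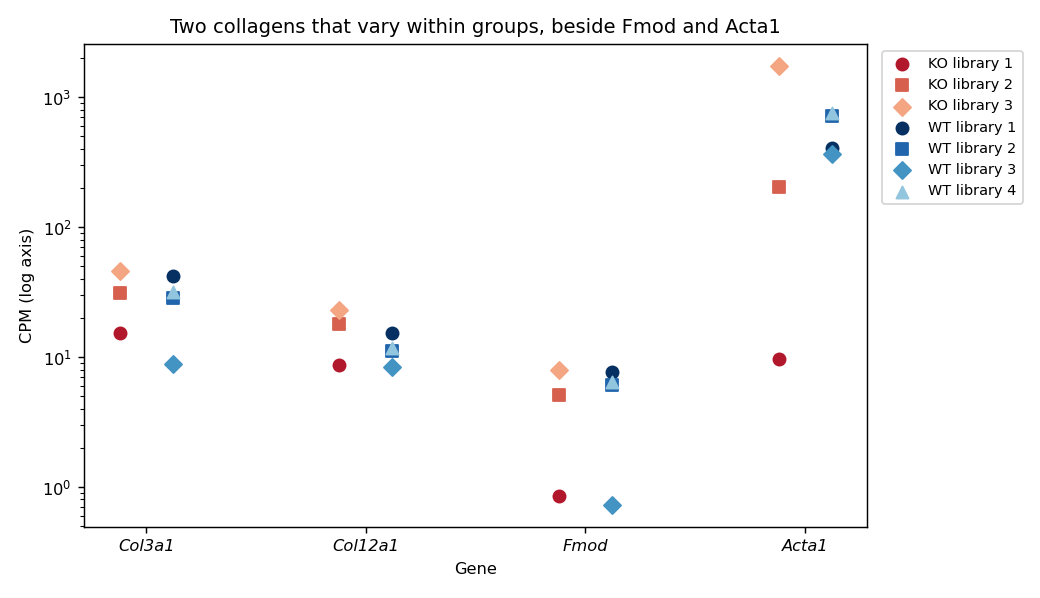
CPM (vertical log axis) of Col3a1 and Col12a1 in each library, with the tendon-expressed gene Fmod and the muscle gene Acta1 beside them; KO red, WT blue. KO library 1 is the lowest KO library for each gene, and WT library 3 is the lowest WT library for each gene. Fmod was chosen after its values were seen, and its marker list is not lowest in WT library 3.

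Type IV and type VI chain genes lay higher in KO by small amounts that did not pass. Col4a2 (chromosome 8, 11312805 to 11449287), a chain of the common type IV network, had 36.6, 36.1 and 37.4 CPM in KO libraries and 25.5, 33.5, 31.4 and 31.9 CPM in WT. Each KO library was above each WT library (log2 fold change 0.26 ± 0.10, SE, adjusted p = 0.361, edgeR). Its partner Col4a1, at 60.9, 55.8 and 57.1 CPM in KO libraries and 37.7, 58.0, 50.3 and 50.4 CPM in WT, overlapped (0.24, adjusted p = 0.540). The pair is transcribed head to head on opposite strands, and their annotated 5′ ends overlap by 22 bases. The ratio of Col4a1 to Col4a2 on the TPM scale was 1.47 to 1.77.

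Col6a1, an obligate chain of the type VI molecule, had 73.1, 69.1 and 75.8 CPM in KO libraries and 47.4, 64.1, 60.0 and 61.2 CPM in WT, with no overlap (log2 fold change 0.32 ± 0.11, SE, adjusted p = 0.297, edgeR). Col6a2 had 53.9, 53.6 and 64.5 CPM in KO libraries and 42.5, 54.2, 45.8 and 50.1 CPM in WT libraries (0.25, adjusted p = 0.418), and the ratio of Col6a1 to Col6a2 was 1.05 to 1.32 on the TPM scale. The larger chain gene Col6a3 was at 24.2 ± 0.17 CPM in KO libraries and 21.7 ± 5.54 CPM in WT libraries (0.16, adjusted p = 0.797). Col6a4 and Col6a5 lay at or under 1.08 CPM in all libraries, with log2 fold changes of 0.16 and 0.67 (adjusted p = 0.926 and 0.643), and Col6a5 lay at 0.19 with the length offset. Col6a5 and Col6a6 share 375 stretches of 31 bases, so their split is uncertain.

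WT library 1 was the lowest library for Col4a1, Col4a2, Col6a1, Col6a2 and Col18a1, and it also had the most haemoglobin reads. Col18a1, the multiplexin from which endostatin is cut, was at 5.51 ± 0.32 CPM in KO libraries and 3.96 ± 0.63 CPM in WT libraries (log2 fold change 0.48, adjusted p = 0.299, edgeR), with no overlap. On the TPM scale its groups overlapped, at 1.08 to 1.19 in KO and 0.511 to 1.60 in WT, and its log2 fold change was 0.025 with an offset for transcript length and 0.21 on log2(TPM + 0.1). Without WT library 1 none of these genes passed, as with it, and each log2 fold change was smaller. Col4a1 was at 0.13 (0.24 with all libraries), Col4a2 at 0.18 (0.26) and Col6a1 at 0.24 (0.32). Col6a2 was at 0.20 (0.25) and Col18a1 at 0.40 (0.48). The part of WT library 1 in these values was not tested further. Endothelial markers, whose cells make type IV and type XVIII collagen, stood at 176 to 187 TPM in KO and 131 to 149.8 TPM in WT. Of 13 such markers 0 passed, and 7 had an unadjusted p under 0.05, all above 0, where 6.45% of all tested genes did. DESeq2 called 2 (all tested genes, 2.84%) and voom 2 (2.14%). Pecam1 was at 76.5 ± 5.28 CPM in KO libraries and 66.0 ± 1.51 CPM in WT libraries (log2 fold change 0.21, adjusted p = 0.277), and Eng at 88.3 ± 13.5 and 75.1 ± 1.81 CPM (0.23, adjusted p = 0.431). Smooth muscle and pericyte markers gave 0 of 7, with Des and Mylk at log2 fold changes of -0.08 and 0.21. Of these 7 markers 5 lay above 0 and 2 below, with a median of 0.29. At an unadjusted p under 0.05 there were 2, both above 0. The sum of the list was 24.1 to 93.9 TPM in KO and 33.6 to 54.9 TPM in WT.

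The other multiplexin, Col15a1, was at 4.06 ± 0.91 CPM in KO libraries and 4.66 ± 1.11 CPM in WT libraries (log2 fold change -0.19). Among short-chain network collagens, Col8a1, a vessel and eye collagen, had 20.9, 15.7 and 20.8 CPM in KO libraries and 30.6, 27.4, 20.1 and 38.8 CPM in WT, with WT library 3 inside the KO range (-0.61, adjusted p = 0.330, edgeR). Col8a2 was at 1.47 ± 0.69 and 1.11 ± 0.35 CPM (0.40, adjusted p = 0.756). Among transmembrane collagens Col25a1 was at 1.97 ± 0.48 and 1.31 ± 0.09 CPM with no overlap (0.58, adjusted p = 0.361), and Col23a1 at 1.31 ± 0.15 and 1.31 ± 0.20 CPM (0.00). Col7a1, the anchoring fibril collagen of skin, and Col26a1 had log2 fold changes of -0.07 and 0.16, adjusted p = 0.957 and 0.945. In all, 5 of 33 tested collagens were higher without overlap on CPM (Col14a1, Col4a2, Col6a1, Col18a1 and Col25a1), beside 6.95% of all tested genes. On the same scale 3 were lower without overlap (Col1a1, Col11a1 and Col5a3), beside 5.94% of all tested genes. On the TPM scale the groups overlapped for Col18a1, Col11a1 and Col5a3.

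Genes that make, trim, bind, sense and degrade collagen, with inhibitors of its breakdown, were listed too, 100 genes of which 95 were tested. None of the 95 passed edgeR's test, where 0.646% of all tested genes did, and 19 had an unadjusted p under 0.05, where 11.5% of all tested genes had. DESeq2 called 7 of the 95 and voom 3, beside 2.84% and 2.14% of all tested genes. Of 23 genes of chain modification and folding, 1 had an unadjusted p under 0.05 above 0 and 2 below. Plod2, a lysyl hydroxylase that sets the type of cross-link, had 10.8, 10.5 and 12.7 CPM in KO libraries and 18.3, 17.2, 15.1 and 16.0 CPM in WT. No library overlapped (-0.55 ± 0.11 on the log2 scale, SE, adjusted p = 0.081, edgeR). The export coat gene Sec24d stood at 0.42 (adjusted p = 0.311), the prolyl isomerase gene Fkbp10 at -0.29 (0.361), and P4hb, a subunit of prolyl hydroxylase, at 0.20 (0.439).

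Of 11 tested genes for procollagen trimming and cross-linking 1 had an unadjusted p under 0.05, beside 11.5% of all tested genes. It was the propeptidase gene Adamts3 (log2 fold change 0.56, adjusted p = 0.424, edgeR). The enhancer of trimming Pcolce stood at 0.23, the propeptidase Bmp1 at -0.21 and the cross-linking enzyme Lox at -0.32. Of 19 tested fibril-associated proteins, 3 had an unadjusted p under 0.05 above 0 and 3 below, beside 6.45% and 5.01% of all tested genes. Aebp1, a collagen-binding matrix protein, had 12.1, 14.6 and 19.2 CPM in KO libraries and 9.35 to 10.3 CPM in WT, with no overlap (0.63, adjusted p = 0.139). Tgfbi was at 0.49 (adjusted p = 0.218) and the fibrillin gene Fbn1 at 0.39 (0.265). Sparc, the osteonectin of bone matrix, had 394, 411 and 420 CPM in KO libraries and 615, 623, 745 and 405 CPM in WT libraries (-0.55, adjusted p = 0.303), with WT library 4 again within the KO range.

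Partners of type IV collagen in basement membranes were laminins, nidogens, peroxidasin, Hspg2, Agrn and Sparcl1. Of these 14 genes, all tested, 3 had an unadjusted p under 0.05, all above 0, where 6.45% of all tested genes did. Lama4 stood at a log2 fold change of 0.53 (adjusted p = 0.299, edgeR), Pxdn, whose product cross-links type IV collagen, at 0.42 (0.394), Nid1 at 0.27 (0.405) and Lama5 at 0.28 (0.458). Of 13 collagen receptors 3 had an unadjusted p under 0.05, all above 0, beside the same 6.45% of all tested genes. They were the inhibitory leukocyte receptor Lair1 (0.34, adjusted p = 0.226, edgeR), the integrin chain Itga1 (0.33, 0.304) and the osteoclast receptor Oscar (0.51, 0.313). Itgb1 stood at 0.12. The list for collagen breakdown held proteases and also the protease inhibitor genes Timp1, Timp2, Timp3, Timp4 and Reck. Of its 16 tested genes 3 had an unadjusted p under 0.05, all above 0, again beside 6.45% of all tested genes. The gelatinase Mmp9 had 952, 905 and 852 CPM in KO libraries and 501, 658, 684 and 693 CPM in WT with no overlap (0.51, adjusted p = 0.145), the protease Ctsl stood at 0.24 (0.155), the neutrophil collagenase Mmp8 at 0.46 (0.426) and Mmp14 at 0.21 (0.537).

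Markers of other marrow cells did not pass either. For Lepr stromal cells 0 of 12 passed, with sums of 776 to 948 TPM in KO and 547 to 905 TPM in WT, and with Cxcl12 and Vcam1 at log2 fold changes of 0.10 and -0.04. For mature adipocytes 0 of 5 tested passed, with Fabp4 at -0.03 and Adipoq at -0.16 and sums of 254 to 382 TPM in KO and 245 to 319 TPM in WT. For megakaryocytes 0 of 9 passed (Ppbp 0.18, Itga2b 0.06), with sums of 2606 to 3920 TPM in KO and 2286 to 3089 TPM in WT. For erythroid cells 0 of 7 passed (Hba-a1 -0.46, Hbb-bt -0.39), with sums of 76359 to 90863 TPM in KO and 89004 to 127513 TPM in WT. Of 6 keratinocyte markers 1 was tested (Krt10, -0.34) and Krt14 and Dsg1a were listed at 0.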

How the data were processed

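RNA of whole bone marrow was sequenced as strand-specific mRNA libraries on DNBSEQ, per the labels' protocols. FastQC 0.11.9, Salmon 1.7.0, DESeq2 and the build GRCm38.p6 are named in the submitters' processing notes, with no role given. The deposited files hold, per transcript, an estimated count (not normalized), a TPM value scaled by the authors for effective length and library total, and the transcript's lengths. Transcripts were joined to GENCODE vM21 genes, and 569 without a gene, at most 0.0662% of reads, were left out. Reads that match several transcripts are divided by Salmon's model.

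Per gene, estimated counts were added up and rounded. After filterByExpr 14238 genes were tested by quasi-likelihood in edgeR 4.0.16 under R 4.3.3, with TMM factors of 0.918 to 1.06, on all 7 libraries without covariates. P-values were adjusted over all tested genes by Benjamini-Hochberg, and an adjusted p under 0.05 was a call. CPM values use TMM-scaled library sizes, fold changes are KO over WT, and SE is the size of the log2 fold change over the root of F. Levels of different genes are compared only in TPM, and rank by CPM served only to choose which markers to name. The same steps were tested on simulated counts. The glycine repeat was read from GENCODE vM21 coding sequences, and promoters from the RefSeq table for GRCm38.p6.

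Groups come from the genotype label and the sample titles. The members, classes, pathway and marker lists, and rules were chosen with earlier results of these data known. Named were every tested collagen, the 4 genes of smallest p in each pathway list, the 2 tested genes of highest mean CPM in each marker list, and Aim2. Acan, Sox9, Matn1, Snorc, Fmod, Bglap and Bglap2 were named after their values were seen. Other settings tried were DESeq2 1.42.0, RLE scaling, TMM without haemoglobin, immunoglobulin and mitochondrial genes, limma 3.58.1 voom with sample weights, no filter, a filter of 1 CPM in 3 libraries, limma on log2(TPM + 0.1) and log2(TPM + 1), a transcript length offset, the sample number as a block, an adjusted p under 0.1, and leaving out each library.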

Additional observations from a re-analysis of the deposited data

Results flagged for a closer look

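For the 33 tested collagens, the 4 WT libraries were checked for a library far from the other 3, and 2 stood apart, where chance gives about 1 in 20. Col23a1, a transmembrane collagen, was at 1.60 CPM in WT library 3 and at 1.18 to 1.24 CPM in the other WT libraries. Col27a1, a fibrillar collagen, was at 6.54 CPM in WT library 1 and at 4.99 to 5.23 CPM in the others. Neither gene passed the test between genotypes.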

How the results depend on the processing

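Col14a1 kept its direction in every alternative and its call except in 3 of the 7 fits that leave out a library and with the replicate block. The number of called collagens was 4 with DESeq2 (1 higher, 3 lower), 0 with the replicate block, and 0 to 3 with a library left out. Over all tested genes the count was 92 (68 higher, 24 lower), 405 with DESeq2 (259 higher, 146 lower), 305 with voom weights (183 and 122), 49 (43 and 6) and 50 (45 and 5) with log2(TPM + 0.1) and log2(TPM + 1), 55 (44 and 11) with the length offset, 198 at an adjusted p under 0.1, and 17 to 65 with a library left out. Pathway genes called were 7 with DESeq2 and 3 with voom weights, against 0. The median collagen log2 fold change moved to 0.11 without a filter, over 43 members, and to -0.12 with the length offset. On TPM the median of all genes lay at 0.13 and 0.10 rather than -0.01.

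Among collagens that did not pass, signs turned as follows. With log2(TPM + 0.1), log2(TPM + 1) and the length offset, Col16a1 was at -0.12, -0.081 and -0.21, Col20a1 at 0.21, 0.083 and 0.097, and Col6a4 at -0.38, -0.083 and -0.82. Col23a1 was at 0.094 and 0.024 and Col5a1 at 0.039 and 0.035 on the TPM scales. With voom weights Col26a1 was at -0.050, Col5a1 at 0.0016 and Col7a1 at 0.0032. With a library left out, values ran from -0.026 to 0.37 for Col16a1, -0.13 to 0.017 for Col20a1, -0.091 to 0.11 for Col23a1, -0.21 to 0.54 for Col26a1, -0.27 to 0.47 for Col3a1, -0.24 to 0.43 for Col6a4, -0.29 to 0.13 for Col7a1, -0.033 to 0.68 for Col8a2 and -0.0074 to 0.31 for Col9a3. The causes were not tested.

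Numbers in the sample titles were not taken to pair the libraries, since same-numbered KO and WT libraries correlated at 0.106, -0.028 and -0.27. The deposited files number the WT libraries differently, sharing 2 numbers with KO (correlations 0.106 and 0.21), too few to judge a pairing, and no block was fitted on them. With the title number as a replicate block 21 genes and 0 collagens were called (Col14a1 adjusted p = 0.0787, edgeR), and Col6a4 was at -0.083. With 3 against 4 libraries, small differences such as those of the type IV and type VI genes cannot be resolved, and collagens under about 1 CPM rest on few reads.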
